A study of Mus musculus with 12 samples.

Results

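S100 proteins are small calcium sensors built on EF-hands, helix-loop-helix folds that grip a calcium ion. The genes described here are S100a1, S100a4, S100a6, S100a8, S100a9, S100a10, S100a11 and S100a13, together with S100pbp, which is no S100 protein itself and is named for binding S100P. They were chosen by name: a member is a gene whose probe sets carry 1 of these symbols and no other in the annotation of the array. That rule uses no measured value, though the family was picked with earlier results of these data known. The rule gave 9 genes with 10 probe sets, out of 17097 genes with a symbol of their own on the array, and all 9 passed a filter on dim probe sets (above the 40th percentile of its array on at least 3 arrays). S100pbp had 2 probe sets and the other members had 1 each. Of 16 S100 genes on the array in all, counting S100pbp, the 7 that are not members are taken up near the end.

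Total RNA (100 ng per array) from cultured mouse blood-forming cells was measured on 12 Affymetrix arrays, 3 in each of 4 groups. B6 arrays hold hematopoietic cells labelled wild type. Ts1Cje arrays hold hematopoietic cells labelled Ts1Cje, a Down syndrome model whose extra copy of a piece of chromosome 16 matches part of human chromosome 21. B6 Trib1 and Ts1Cje Trib1 arrays hold acute myeloid leukaemia (AML) lines of the same 2 backgrounds, labelled as expressing Trib1. Their titles give it as Trib1 WT (wild type). Trib1 is a pseudokinase that helps to degrade the myeloid transcription factor C/EBPα. All 4 groups grew in IMDM medium with 5 ng/ml interleukin-3 and 10% fetal bovine serum, and none was treated. Trib1 and the leukaemic state always go together, so they cannot be told apart, and the labels do not say how the Trib1 gene was delivered, the age of the mice, or how many mice or lines stand behind the arrays. The p-values therefore speak of the spread from array to array, and that spread may be technical.

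Values are intensities on a linear scale without a unit. Differences are those of log2(intensity + 15) with their standard error, tested with limma, and "passed" means an adjusted p under 0.05, adjusted over all 12560 genes tested. Array medians lay between 30.5 and 31.99, and arrays of 1 group correlated at 0.997 to 0.999. The Trib1 probe set that could be tested was lower in the groups labelled Trib1: mean intensity (± SD, n = 3) was 76.2 ± 7.23 with B6 and 72.0 ± 3.501 with Ts1Cje, against 46.2 ± 2.88 with B6 Trib1 and 45.9 ± 3.57 with Ts1Cje Trib1. The log2 difference was -0.57 for B6 Trib1 minus B6 and -0.52 for Ts1Cje Trib1 minus Ts1Cje (limma adjusted p = 3.33e-06 and 7.01e-06). Which part of the Trib1 transcript was expressed in the lines is not stated, so this probe set neither checks nor contradicts the label, and the group names are those of the labels throughout. Of 20 genes of the trisomic segment picked for a check of the genotype label, 18 were measured; 15 were higher and 2 lower in Ts1Cje than in B6, and 16 were higher in Ts1Cje Trib1 than in B6 Trib1.

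S100A8 and S100A9 pair into calprotectin, the most plentiful calcium-binding complex of neutrophil cytoplasm, which also sequesters zinc and manganese from microbes and signals through the receptors TLR4 and RAGE once released. They appear as a myeloid progenitor turns into a granulocyte or monocyte. S100A10 and S100A11 work with annexins at membranes, S100A4 binds non-muscle myosin, S100A6 binds the calcyclin-binding protein CACYBP, S100A1 is best known from the calcium cycle of heart muscle, and S100A13 takes part in the unconventional secretion of FGF1. In the mouse reference assembly GRCm38.p6 the 8 S100 members all lie on chromosome 3 and S100pbp lies on chromosome 4, so none sits in the trisomic piece of chromosome 16. S100a8 and S100a9 are direct neighbours, as are S100a1 and S100a13, whose transcription starts lie 104 bases apart on opposite strands. S100a4 and S100a6 are separated only by S100a5, and S100a10 and S100a11 only by Gm29950, about 100 genes further along the chromosome than S100a1.

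The promoters of S100a8, S100a9, S100a4 and S100a11 are shown because these are the members that were lower in Ts1Cje Trib1 than in B6 Trib1. Each is the 250 bases before a RefSeq transcription start (GRCm38.p6), read 5′ to 3′ on the strand of the gene, with motif matches in capitals. S100a8 lies at chr3:90668821-90669070 (+ strand), S100a9 at chr3:90695722-90695971 (− strand), S100a4 at chr3:90603520-90603769 (+ strand) and S100a11 at chr3:93520246-93520495 (+ strand).
S100a8: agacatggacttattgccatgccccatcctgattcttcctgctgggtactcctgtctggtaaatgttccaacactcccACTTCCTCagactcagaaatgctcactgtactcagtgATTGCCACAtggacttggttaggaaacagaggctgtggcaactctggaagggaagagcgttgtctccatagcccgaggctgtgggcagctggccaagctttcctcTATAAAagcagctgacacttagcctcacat
S100a9: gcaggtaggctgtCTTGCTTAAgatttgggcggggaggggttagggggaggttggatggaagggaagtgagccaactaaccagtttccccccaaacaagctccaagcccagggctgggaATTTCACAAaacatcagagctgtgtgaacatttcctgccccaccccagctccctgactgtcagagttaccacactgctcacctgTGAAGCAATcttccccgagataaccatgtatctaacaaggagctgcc
S100a4: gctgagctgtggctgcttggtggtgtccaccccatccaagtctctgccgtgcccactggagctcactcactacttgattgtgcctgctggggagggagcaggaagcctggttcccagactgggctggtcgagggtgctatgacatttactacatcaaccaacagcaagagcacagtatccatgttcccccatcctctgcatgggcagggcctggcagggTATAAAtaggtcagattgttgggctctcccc
S100a11: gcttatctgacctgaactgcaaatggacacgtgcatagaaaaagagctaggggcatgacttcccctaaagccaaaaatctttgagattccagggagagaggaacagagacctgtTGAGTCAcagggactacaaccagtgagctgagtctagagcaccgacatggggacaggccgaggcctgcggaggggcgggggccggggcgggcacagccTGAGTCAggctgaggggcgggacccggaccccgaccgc
The motifs searched, on both strands, were the TATA box TATAAA, the PU.1 site GAGGAAGT, the AP-1 site TGANTCA, the STAT site TTCNNNGAA, and the C/EBP site in the forms TTNNGNAAT, TTNNGNAAG, TGNNGNAAT and TGNNGNAAG. S100a8 held a TATA box 30 bases before its start, a C/EBP match at 135 and a PU.1 match at 172. S100a9 held 3 C/EBP matches, at 47, 131 and 237 bases. S100a4 held a TATA box at 31 bases, and S100a11 held AP-1 matches at 38 and 136 bases. Of the other members with a window, S100a1 held 1 C/EBP match and S100a6, S100a13 and S100pbp held none of these motifs. Such matches are common in windows of this length: of 32851 promoter windows, 40.1% held a C/EBP form, 12.4% the TATA box, 7.02% the STAT site, 6.75% the AP-1 site and 2.44% the PU.1 site. A match describes letters in the sequence and not binding, which was not measured.

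**Figure D1:**
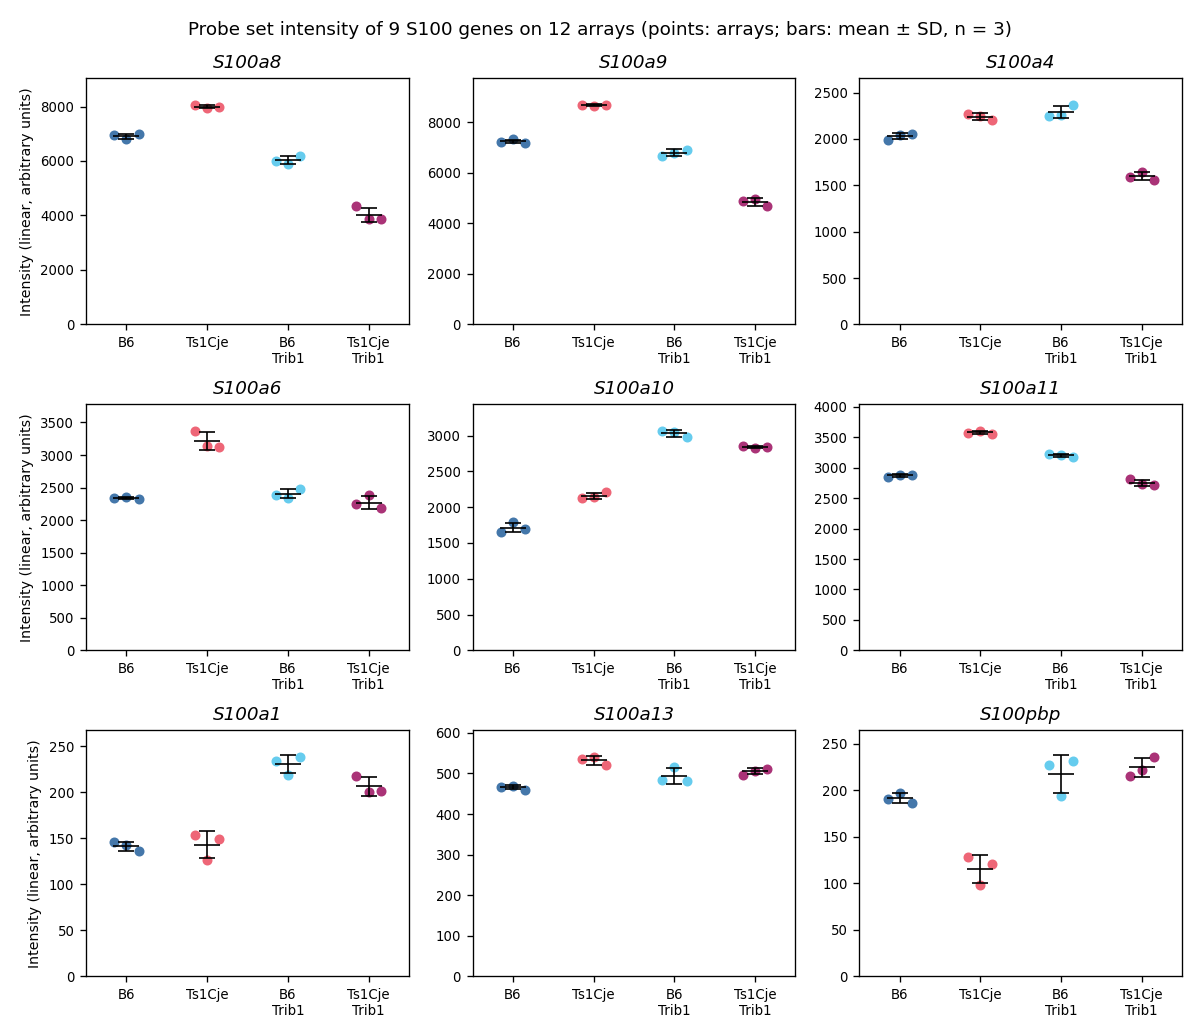
Intensity (linear scale, from 0) of each of the 9 genes on the 12 arrays by group; points are arrays and bars are the mean ± SD of 3 arrays. S100a8, S100a9, S100a4 and S100a11 were lowest in Ts1Cje Trib1, S100a10 and S100a1 were highest in B6 Trib1, and S100pbp was lowest in Ts1Cje.

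The calprotectin genes were highest in Ts1Cje cells and lowest in Ts1Cje Trib1 lines. S100a8 read 6947, 6789 and 6973 on the B6 arrays and 8064, 7935 and 7984 on the Ts1Cje arrays. In the lines it read 5995, 5899 and 6184 with B6 Trib1 and 4329.7, 3884 and 3873 with Ts1Cje Trib1. No 2 of the 4 groups overlapped. S100a9 read 7225, 7312 and 7167 in B6 and 8676, 8617 and 8685 in Ts1Cje. Its values were 6644.5, 6786 and 6915 in B6 Trib1 and 4892, 4948 and 4663 in Ts1Cje Trib1. The order of the groups was the same for both genes, again without overlap.

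Between the cells without Trib1, the genotype went with a small rise of calprotectin. S100a8 was 15.8% higher in Ts1Cje than in B6 on the intensity scale, a log2 difference of 0.21 ± 0.044 (limma adjusted p = 0.00144), and S100a9 was 19.7% higher (0.26 ± 0.035; adjusted p = 4.57e-05). Between the lines the sign was the opposite. S100a8 was 33.1% lower in Ts1Cje Trib1 than in B6 Trib1 (log2 difference -0.58 ± 0.044; adjusted p = 5.66e-07) and S100a9 28.7% lower (-0.49 ± 0.035; adjusted p = 3.27e-07). The difference between the genotype effects, the interaction, was -0.79 ± 0.063 for S100a8 and -0.75 ± 0.049 for S100a9 (adjusted p = 4.38e-07 and 8.17e-08).

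Trib1 lines had less calprotectin transcript than the cells of their background, except that S100a9 in the B6 background turned sign under 1 scaling. From Ts1Cje to Ts1Cje Trib1, S100a8 fell by 0.99 on the log2 scale (SE 0.044; adjusted p = 1.85e-10), which is 49.6% lower in intensity. S100a9 fell by 0.84 (SE 0.035; adjusted p = 8.52e-11), or 44.2% lower. From B6 to B6 Trib1 the differences were smaller. S100a8 fell by 0.20 (adjusted p = 0.00181), and this call was lost (-0.09; adjusted p = 0.0856) when arrays were centred on the median of the kept probe sets. S100a9 fell by 0.09 (adjusted p = 0.0324), a difference whose sign turned to 0.01 under that centring. Blocking on replicate number also ended the S100a9 call (adjusted p = 0.0513), as did leaving out B6 array 1, 2 or 3 or B6 Trib1 array 1 or 2 (adjusted p from 0.0558 to 0.11).

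S100a9 gave the brightest probe set signal on each of the 3 Ts1Cje arrays, where the array maxima were 8617 to 8685, and S100a8 stood between 2 and 5 in the same order. On the B6 arrays S100a9 stood at 8 to 10, on the B6 Trib1 arrays at 19 to 25 and on the Ts1Cje Trib1 arrays at 150 to 172. This order is of probe set brightness, which also depends on the probes, and not of transcript amounts. How nearness to the top of the scale bears on the size of these differences was not tested. The S100a8 probe set is of a type (_s_at) whose probes can match more than 1 transcript.

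The summed intensities of markers of maturing myeloid cells stood in the same order of groups as S100a8 and S100a9, though bright genes carry such sums and not every marker followed. The summed intensity of 14 of 16 neutrophil markers was 24827 to 25311 on the B6 arrays, 39359 to 40232 on the Ts1Cje arrays, 20106 to 20413 on the B6 Trib1 arrays and 11244 to 11515 on the Ts1Cje Trib1 arrays. For 11 of 12 monocyte and macrophage markers the sums were 9041 to 9136, 13553 to 13766, 8620 to 8881 and 5370 to 5384 in that order, with no defining marker dim on every array in either list. Over all genes, the share that passed in either direction was 52.6% for Ts1Cje minus B6 and 21.5% between the lines. It was 65.2% for B6 Trib1 minus B6 and 60.8% for Ts1Cje Trib1 minus Ts1Cje. Of the 14 neutrophil markers, 12 rose and 1 fell from B6 to Ts1Cje, and 12 fell and none rose from B6 Trib1 to Ts1Cje Trib1. From B6 to B6 Trib1 3 of them rose and 10 fell, and from Ts1Cje to Ts1Cje Trib1 all 14 fell. Of the 11 monocyte and macrophage markers, 9 rose and 1 fell from B6 to Ts1Cje, and 2 rose and 8 fell between the lines. From B6 to B6 Trib1, where S100a8 was lower, 5 of these markers rose and 5 fell (list median 0.05 on the log2 scale), and from Ts1Cje to Ts1Cje Trib1 2 rose and 9 fell. The part of these markers in the S100 results was not tested. In bulk samples such as these, fewer cells of a type and less RNA per cell cannot be told apart.

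S100a4 followed calprotectin in Ts1Cje Trib1 but not in B6 Trib1. Its intensities were 1992, 2040.0 and 2053 in B6 and 2271, 2246 and 2199 in Ts1Cje. The B6 Trib1 arrays read 2249, 2260.5 and 2368 and the Ts1Cje Trib1 arrays 1588.5, 1644 and 1561. The 3 Ts1Cje Trib1 values lay below all 9 others, while Ts1Cje and B6 Trib1 overlapped. Ts1Cje exceeded B6 by 0.14 ± 0.037 (adjusted p = 0.00584) and B6 Trib1 exceeded B6 by 0.17 ± 0.037 (adjusted p = 0.00102). S100a4 was 30.3% lower in Ts1Cje Trib1 than in B6 Trib1 (-0.52 ± 0.037; adjusted p = 2.85e-07) and 28.6% lower than in Ts1Cje (-0.48 ± 0.037; adjusted p = 5.3e-08). The interaction was -0.66 ± 0.052 (adjusted p = 4.17e-07).

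S100a6, its close neighbour on the chromosome, stood out in a single group. The B6 arrays read 2336, 2363 and 2329, the B6 Trib1 arrays 2394, 2346 and 2483, and the Ts1Cje Trib1 arrays 2245, 2383 and 2185. The Ts1Cje arrays read 3373, 3132 and 3128, above all the others, whereas the remaining 3 groups overlapped one another. S100a6 was 37.1% higher in Ts1Cje than in B6 (0.45 ± 0.044; adjusted p = 2.44e-06), the highest percent of the members that rose there, and 29.3% lower in Ts1Cje Trib1 than in Ts1Cje (-0.50 ± 0.044; adjusted p = 2.58e-07). It passed the test neither between the lines (-0.08; 95% interval from -0.18 to 0.01) nor between B6 Trib1 and B6 (0.04; interval from -0.06 to 0.13). The interaction was -0.54 ± 0.062 (adjusted p = 1.45e-05).

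The annexin partners S100a10 and S100a11 had opposite signs from Ts1Cje to Ts1Cje Trib1. S100A10, also called p11, forms a tetramer with annexin A2 at the plasma membrane that gathers plasminogen. S100a10 read 1659.7, 1791 and 1697 in B6 and 2131, 2139 and 2208 in Ts1Cje, and 3067, 3049.5 and 2980.4 on the B6 Trib1 arrays and 2853, 2829 and 2839.7 in Ts1Cje Trib1. All 4 groups were apart, with both Trib1 groups above both groups of cells. The rise from B6 to B6 Trib1 was 1.77-fold (0.82 ± 0.037; adjusted p = 3.45e-10), and that from Ts1Cje to Ts1Cje Trib1 was 1.32-fold (0.39 ± 0.037; adjusted p = 4.99e-07). Ts1Cje was 25.8% above B6 (0.33 ± 0.037; adjusted p = 8.93e-06). Between the lines S100a10 had a log2 difference of -0.09 (interval from -0.17 to -0.01), with groups that did not overlap, and missed the threshold after adjustment (adjusted p = 0.0937); with a variance trend and robust moderation it passed (adjusted p = 0.0231). The interaction was -0.42 ± 0.052 (adjusted p = 2.55e-05).

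S100A11 binds annexin A1 and takes part in membrane repair. S100a11 read 2849, 2884 and 2880.4 in B6, 3570.4, 3605 and 3557 in Ts1Cje, 3217, 3209.6 and 3177 on the B6 Trib1 arrays and 2808, 2729.7 and 2723 in Ts1Cje Trib1. Arrays of 1 group lay close together and no groups overlapped, with Ts1Cje highest and Ts1Cje Trib1 lowest, as for calprotectin. Here B6 Trib1 lay above B6 (0.16 ± 0.031; adjusted p = 0.000774), where S100a8 lay below it. S100a11 was 24.6% higher in Ts1Cje than in B6 (0.32 ± 0.031; adjusted p = 3.16e-06), 14.0% lower in Ts1Cje Trib1 than in B6 Trib1 (-0.22 ± 0.031; adjusted p = 0.000227) and 23.0% lower than in Ts1Cje (-0.38 ± 0.031; adjusted p = 1.52e-07). The interaction was -0.53 ± 0.045 (adjusted p = 7.43e-07). The reference also lists a pseudogene, S100a11-ps, and whether its transcripts add to this probe set was not tested.

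In the head-to-head pair S100a1 and S100a13, only S100a1 passed the Trib1 comparisons and only S100a13 the genotype comparison without Trib1. S100a1 read 146, 143 and 136 in B6, 154, 126 and 149.9 in Ts1Cje, 234, 219 and 239 on the B6 Trib1 arrays and 218, 200.1 and 202 in Ts1Cje Trib1. Both groups of lines were above both groups of cells, and the cells overlapped. S100a1 was 62.9% higher in B6 Trib1 than in B6 (0.65 ± 0.063; adjusted p = 1.01e-06) and 44.4% higher in Ts1Cje Trib1 than in Ts1Cje (0.49 ± 0.063; adjusted p = 1.2e-05). The genotype difference was 0.01 without Trib1 (interval from -0.13 to 0.15), with a sign that turned under median centring of the arrays. With Trib1 it was -0.15 (interval from -0.28 to -0.01, adjusted p = 0.121, groups not overlapping). That difference between the lines passed in 2 of 25 alternatives (lowest adjusted p = 0.0345). The S100a1 interaction was -0.16 ± 0.089 and did not pass (adjusted p = 0.155), but did under quantile normalization (-0.27; adjusted p = 0.0107).

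S100a13 varied least. It read 468, 469 and 460.2 in B6, 536, 541 and 520.4 in Ts1Cje, 483, 517 and 481 on the B6 Trib1 arrays and 497, 507 and 511 in Ts1Cje Trib1. Its 4 group means spanned 0.19 on the log2 scale, against 0.99 for S100a8, and the 2 groups of lines overlapped. S100a13 rose by 14.4% from B6 to Ts1Cje (0.19 ± 0.037; adjusted p = 0.000951). No other pairwise comparison passed: the log2 differences were 0.03 between the lines (interval from -0.05 to 0.11), 0.08 for B6 Trib1 minus B6 (adjusted p = 0.0718) and -0.07 for Ts1Cje Trib1 minus Ts1Cje (adjusted p = 0.102). The S100a13 interaction was -0.16 ± 0.053 (adjusted p = 0.0274), and it missed the threshold under median centring (adjusted p = 0.0547) and without B6 array 3, Ts1Cje array 2, B6 Trib1 array 2 or Ts1Cje Trib1 array 1 (adjusted p from 0.0591 to 0.0704).

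S100pbp alone of the 9 passed the test as lower in Ts1Cje than in B6, on 1 of its 2 probe sets. The brighter probe set read 191, 198 and 187 in B6, 128, 98.7 and 121 in Ts1Cje, 227, 194 and 231 on the B6 Trib1 arrays and 215, 222 and 236 in Ts1Cje Trib1. Ts1Cje was below all other groups, which overlapped in part. It was 39.6% lower in Ts1Cje than in B6 (-0.67 ± 0.079; adjusted p = 1.55e-05) and 1.94-fold higher in Ts1Cje Trib1 than in Ts1Cje (0.88 ± 0.079; adjusted p = 3.33e-07). Neither the lines (0.05; interval from -0.13 to 0.22) nor B6 Trib1 against B6 (0.17; adjusted p = 0.0794) passed, and the interaction was 0.71 ± 0.112 (adjusted p = 0.000196). The dimmer probe set, with group means of 28.2, 30.3, 37.5 and 37.2 in the order B6, Ts1Cje, B6 Trib1 and Ts1Cje Trib1, disagreed. There Ts1Cje and B6 differed by 0.07 (adjusted p = 0.266), both Trib1 groups were higher than their cells (0.28 and 0.20; adjusted p = 0.000289 and 0.0028), and the interaction was -0.08 (adjusted p = 0.388). With the mean of the probe sets the S100pbp differences were -0.30 for Ts1Cje minus B6, 0.54 for Ts1Cje Trib1 minus Ts1Cje and 0.32 for the interaction, so these S100pbp values rest on the brighter probe set.

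**Figure D2:**
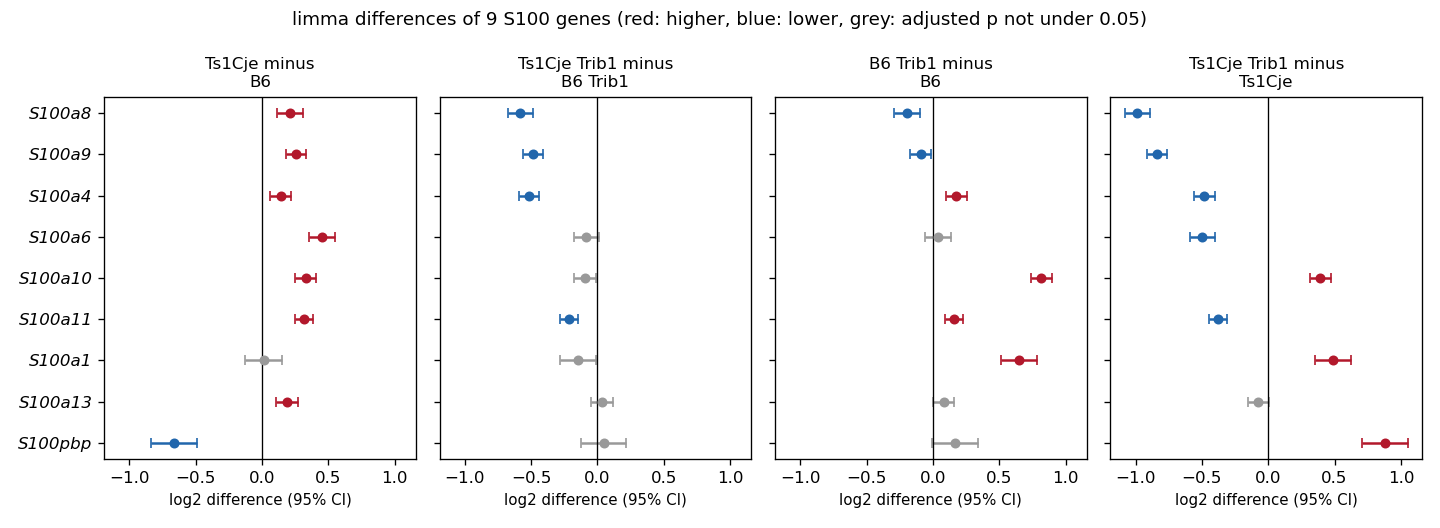
log2 differences of the 9 genes in 4 comparisons with 95% confidence intervals from limma; red marks higher, blue lower, and grey an adjusted p that is not under 0.05. From B6 to Ts1Cje all points but S100a1 and S100pbp are red, and in the lines the calls are 4 blue points.

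Counted over the 9 members, 8 passed between Ts1Cje and B6, 7 of them higher and 1, S100pbp, lower. Over all 12560 genes tested the share that passed was 52.6%, with 23.3% higher and 29.3% lower. The groups did not overlap for 8 members, against 60.3% of all genes. Between the lines 4 of 9 members passed (21.5% of all genes), none higher (11.9%) and 4 lower (9.63%), and the groups did not overlap for 6 members (36.4%). The median log2 difference of the members was 0.21 from B6 to Ts1Cje and -0.15 from B6 Trib1 to Ts1Cje Trib1, where the medians of all genes were 0.01 and 0.00048. S100a5 and S100a16, S100 genes that were tested but are not members, stand outside these counts. They passed in neither genotype comparison (limma adjusted p from 0.454 to 0.951).

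In the Trib1 comparisons members passed in both directions, as genes did over the whole array. From B6 to B6 Trib1, 6 of 9 members passed (65.2% of all genes): S100a10, S100a1, S100a4 and S100a11 were higher (34.1%) and S100a8 and S100a9 lower (31.1%), and the groups did not overlap for 7 (72.6%). These counts lie near the shares over all genes. With arrays centred on the median of the kept probe sets, 7 members were higher and none lower from B6 to B6 Trib1. From Ts1Cje to Ts1Cje Trib1, 8 passed (60.8%): S100a10, S100a1 and S100pbp were higher (34.1%) and S100a8, S100a9, S100a4, S100a6 and S100a11 lower (26.8%), and the groups did not overlap for all 9 (64.3%). The members' medians were 0.16 and -0.38, and those of all genes 0.03 and 0.02. Both Trib1 comparisons share arrays with the genotype comparisons, so these counts are not independent of those above.

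The interaction passed for 8 of 9 members (48.6% of all genes), with S100pbp higher (28.4%) and the other 7 lower (20.2%). S100a1 alone of the 9 did not pass, and outside the 9, S100a5 and S100a16 did not pass either (limma adjusted p = 0.477 and 0.668). The members' median was -0.53, and that of all genes 0.01. In each of S100a8, S100a9, S100a4 and S100a11 both genotype differences passed the test with opposite signs. Genes outside the family, such as Anxa1, Cd14 and Cybb, did so too. The share of all genes with this reversal was not counted, so it cannot be called particular to these S100 genes. For S100a6, S100a10, S100a13 and S100pbp only the difference between the cells without Trib1 passed, and the interaction itself passed for each of them.

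**Figure D3:**
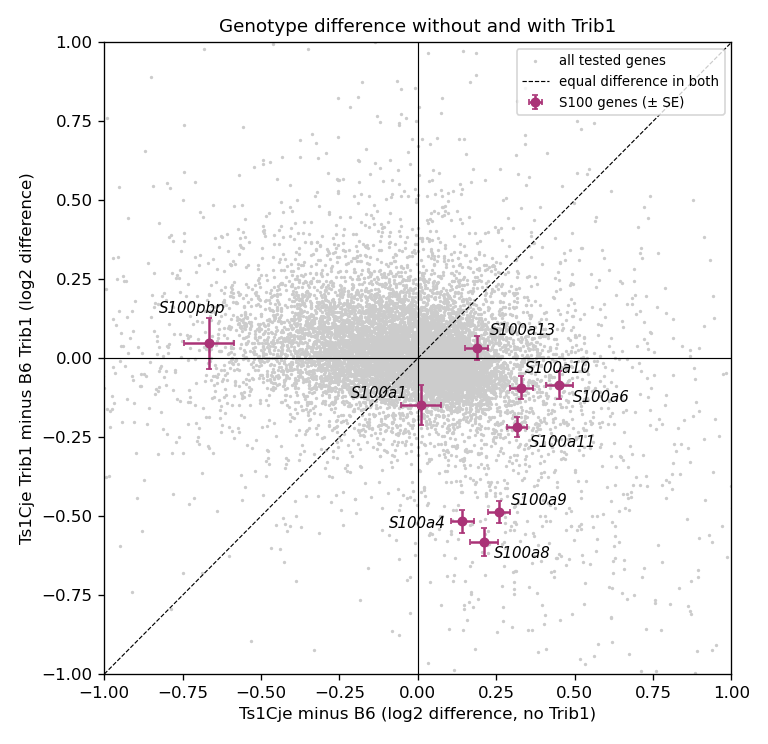
Genotype difference in cells without Trib1 (x axis) against that in the lines (y axis), both as log2 differences; grey points are all tested genes within the frame (228 of 12560 lie outside), and coloured points are the 9 genes with their standard errors. S100a8, S100a9, S100a4 and S100a11 lie to the right of 0 and below 0, and S100pbp lies at -0.67 on the x axis.

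Among the members, S100a8 and S100a9 had the most similar profile over the 12 arrays: their log2 values, each centred on its mean, had a root mean square difference of 0.083. The next pair was S100a6 and S100a11 at 0.1001, and S100a10 was nearest to S100a1 at 0.137. No member reached the range of 1 log2 unit set for naming genes of like profile, and S100a8 came closest at 0.99. The following genes were therefore named after their values were seen. Over all genes tested, Tpd52, Rap2a and Slc43a2 lay nearest to S100a8 (0.054 to 0.080), Slc43a2, Rap2a and Cyba nearest to S100a9 (0.050 to 0.071), and Zkscan1, Pcgf6 and Ndrg3 nearest to S100pbp (0.072 to 0.082). Tpd52, for example, stood at 804 ± 24.3 with B6 and 904 ± 20.9 with Ts1Cje, then 685 ± 9.43 with B6 Trib1 and 470.0 ± 5.17 with Ts1Cje Trib1.

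Of the 7 S100 genes on the array that are not members, only S100a5 and S100a16 passed the filter, and S100a3, S100a7l2, S100a14, S100b and S100g were dim. S100a5, which lies between S100a4 and S100a6, had mean intensities of 23.6 (B6), 24.6 (Ts1Cje), 51.5 (B6 Trib1) and 49.9 (Ts1Cje Trib1). It rose with Trib1 in both backgrounds (0.79 and 0.71; adjusted p = 9.41e-08 and 1.89e-07) and not with the genotype, so neither neighbour shared its pattern of calls. S100a16 had means of 69.2, 66.2, 50.1 and 49.7 in the same order and fell with Trib1 (-0.37 and -0.33; adjusted p = 9.28e-05 and 0.000229).

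Annexins, the calcium-dependent membrane binders that S100A10 and S100A11 partner, had 7 of 8 listed genes measured. Beside the counts of this and the later lists stand the shares of all genes that passed in either direction. These were 52.6% for Ts1Cje minus B6, 21.5% between the lines, 65.2% for B6 Trib1 minus B6 and 60.8% for Ts1Cje Trib1 minus Ts1Cje. For the interaction the share was 48.6%. From B6 to Ts1Cje 5 rose and none fell, and from B6 Trib1 to Ts1Cje Trib1 none rose and 4 fell, as S100a11 did. Anxa2, the partner of S100a10, stood at 1937 ± 6.88, 2711 ± 86.2, 1522 ± 39.1 and 1265 ± 29.8 over B6, Ts1Cje, B6 Trib1 and Ts1Cje Trib1, so it fell with Trib1 (-0.35 and -1.09; adjusted p = 2.85e-06 and 9.91e-12) where S100a10 rose. Anxa1, the partner of S100a11, had 2116 ± 23.2, 3695 ± 136, 3090.4 ± 54.9 and 2352 ± 111 in that order, and passed in the same directions as S100a11 in all 4 comparisons. The interaction passed for 5 annexins, all lower, and the list medians of the 4 comparisons were 0.44, -0.15, 0.14 and -0.43.

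The 9 receptors and signalling genes through which released S100 proteins act were all measured. From B6 to Ts1Cje 8 rose and Cd36 fell, between the lines 3 rose and 4 fell, from B6 to B6 Trib1 2 rose and 5 fell, and from Ts1Cje to Ts1Cje Trib1 Bsg rose and 8 fell. Cd14, a co-receptor of TLR4 that is also on the monocyte marker list, had the signs of S100a8 in both genotype comparisons, with means of 100.3 in B6, 189 in Ts1Cje, 148 on the B6 Trib1 arrays and 45.3 in Ts1Cje Trib1. Tlr4 itself had means of 526, 794, 163 and 183. Bsg, which encodes the S100A9 receptor basigin, rose with Trib1 (0.69; adjusted p = 3.53e-09 in the B6 background) while S100a9 did not. Alcam had a second probe set that disagreed, at -0.31 against 0.15 for Ts1Cje minus B6. The list medians of the 4 comparisons were 0.24, 0.00011, -0.17 and -0.61, and the interaction passed for 1 higher and 5 lower genes.

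Intracellular targets were measured for 9 of 14 genes. The NADPH oxidase, to which calprotectin delivers arachidonic acid, was represented by Cybb, Cyba and Ncf4, which all rose from B6 to Ts1Cje and fell from B6 Trib1 to Ts1Cje Trib1, as S100a8 and S100a9 did. The fall of Ncf4 between the lines was small (-0.12; adjusted p = 0.0478) and lost its call under median centring (-0.11; adjusted p = 0.11). Cybb had means of 596, 1530.0, 767 and 268 in B6, Ts1Cje, B6 Trib1 and Ts1Cje Trib1. Ahnak, a scaffold bound by the S100A10 and annexin A2 complex, fell with Trib1 (-1.52 and -2.57; adjusted p = 1.13e-09 and 2.41e-12) on its brightest probe set. Of its other probe sets, both dim, 1 fell too (-0.17 and -0.39) and 1 had 0.25 and 0.07, with an adjusted p over all probe sets of 0.00162 and 0.279. Myh9, the non-muscle myosin bound by S100A4, rose with Trib1 in the B6 background (0.72; adjusted p = 1.5e-09). Its interaction, which is also the difference of the Trib1 effect between the backgrounds, was -0.12 and did not pass (adjusted p = 0.0759). It passed under quantile normalization (-0.15, adjusted p = 0.0364) and under centring on the kept probe sets (-0.21, adjusted p = 0.0308). Over the list, 5 rose and 2 fell from B6 to Ts1Cje, 4 fell between the lines, 3 rose and 3 fell from B6 to B6 Trib1, and 2 rose and 5 fell from Ts1Cje to Ts1Cje Trib1. The medians were 0.12, -0.08, 0.04 and -0.11 in that order, and the interaction passed for 1 higher and 4 lower genes. Of 18 measured genes for other EF-hand sensors, such as calmodulins, 7 rose and 2 fell from B6 to Ts1Cje (52.6% of all genes passed). Between the lines 2 of them rose (21.5% of all genes passed), with Rcn1 (0.32, adjusted p = 0.000105) the first of these by adjusted p. From B6 to B6 Trib1 10 of these sensors rose and 4 fell, from Ts1Cje to Ts1Cje Trib1 3 rose and 4 fell, and the medians of the 4 comparisons were 0.05, -0.01, 0.17 and 0.02. No gene of these 4 lists that passed turned sign under any of 3 other scalings, but of 130 calls over the 5 comparisons 4 were lost under quantile normalization, 7 under median centring and 12 under centring on the kept probe sets, a check added after the values were seen. The rise of Tlr4 between the lines (0.16; adjusted p = 0.0481) was lost under all 3 (adjusted p from 0.0538 to 0.0752).

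**Figure D4:**
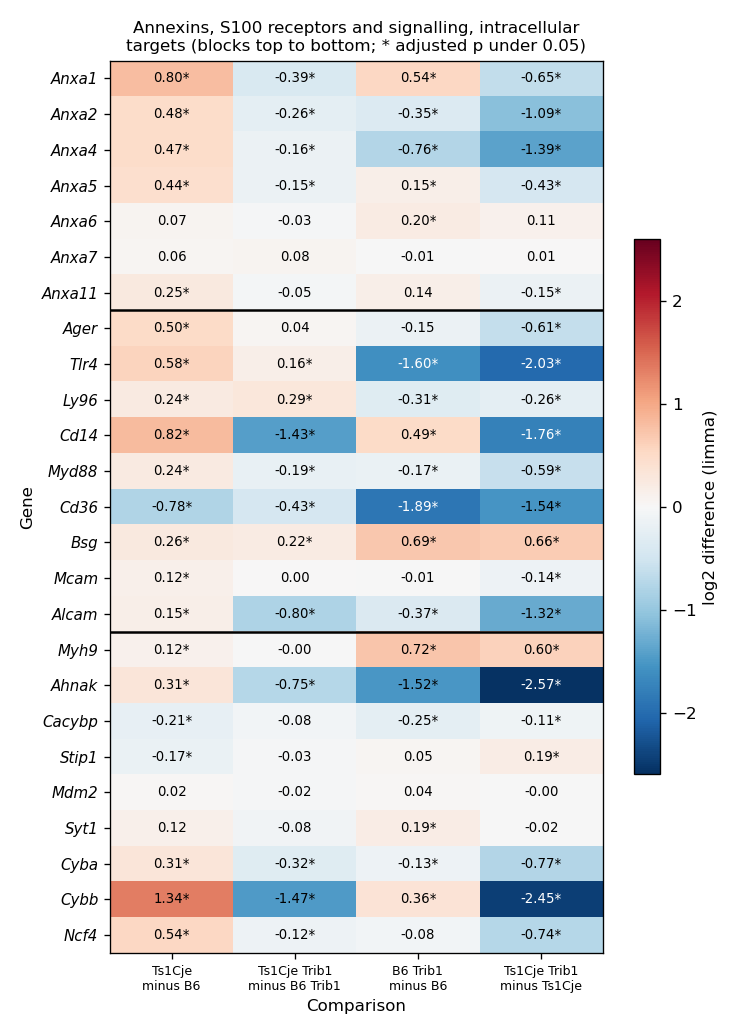
log2 differences (columns: 4 comparisons; colour scale in log2 units) of annexins, receptors with their signalling genes, and intracellular targets, in blocks from top to bottom; a star marks an adjusted p under 0.05. Anxa1, Cd14 and Cybb are positive for Ts1Cje minus B6 and negative for Ts1Cje Trib1 minus B6 Trib1, the signs of S100a8 and S100a9. For B6 Trib1 minus B6 they are positive (0.54, 0.49 and 0.36), where S100a8 and S100a9 were lower.

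Mast cell and basophil markers and megakaryocyte markers were, like S100a10 and S100a1, higher in the lines than in the cells of their background. Summed over 7 of 8 markers, mast cell and basophil genes stood at 2594 to 2622 in B6, 4383 to 4670.0 in Ts1Cje, 18165 to 18407 on the B6 Trib1 arrays and 20623 to 21347 in Ts1Cje Trib1. Megakaryocyte genes (7 of 8) stood at 7092 to 7358, 6172 to 6379, 14428 to 14748 and 12090.2 to 12738 in that order. The sums did not follow these S100 genes in every comparison. The megakaryocyte sum was lower in Ts1Cje than in B6, where S100a10 was higher. The mast cell and basophil sum was higher in Ts1Cje Trib1 than in B6 Trib1, where the means of S100a10 and S100a1 were lower. By gene, 2 of the 7 mast cell and basophil markers passed as higher between the lines and 3 as lower (list median 0.06 on the log2 scale). The sums of stem and progenitor, erythroid, T and NK cell, and stromal, endothelial and epithelial genes were higher in the lines as well, though not every marker followed. Of 7 T and NK cell markers tested, 1 passed as higher and 5 as lower in each Trib1 comparison. Of 6 stromal, endothelial and epithelial markers tested, 2 were higher and 3 lower from B6 to B6 Trib1. From Ts1Cje to Ts1Cje Trib1 2 of these were higher and 2 lower. Stem and progenitor markers (6 tested) had 4 higher and 2 lower in each. Erythroid markers (5 tested) had 3 higher and 1 lower, then 2 and 1. B cell genes (7 of 9) went from 5120.2 to 5340 in B6 and 1954 to 2080 in Ts1Cje to 196 to 221 in B6 Trib1 and 199 to 218 in Ts1Cje Trib1. The part of these markers in the S100 results was not tested.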

How the data were processed

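Per the submitters' processing notes the deposited intensities were made with MAS5; its version and scaling target, and the genome build, are not given in the sources used here. MAS5 uses mismatch probes, which this array type (perfect-match probes only) lacks, so how the intensities were summarised stays unsettled. All 12 arrays entered 1 fit without further scaling.

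Probe sets with 1 gene symbol were kept if above the 40th percentile of their array on at least 3 arrays, 15 (the rounded 20th percentile of all values) was added, and log2 was taken. The probe set with the highest mean stood for a gene, which left 12560 genes. limma 3.58.1 in R 4.3.3 fitted 1 mean per group; ± after a log2 difference is the standard error, tests are two-sided, p-values carry the Benjamini-Hochberg adjustment over all genes, and the threshold is 0.05. The script was tested on simulated data.

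The members, the 4 pathway lists and the 11 marker lists were chosen with earlier results of these data known; the 20 trisomic genes were chosen last, from textbook knowledge. Named genes were the members and other S100 genes, up to 4 genes per pathway list and comparison with the lowest adjusted p, and up to 3 genes per marker list by mean intensity. Same-numbered arrays did not deviate together (correlations from -0.45 to 0.35), so numbers were not used as pairs. Alternatives covered scaling, offset, filter, probe set choice, moderation, the block, and each array left out.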

Additional observations from a re-analysis of the deposited data

Results flagged for a closer look

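For 8 of the 9 genes the genotype difference in the lines differed from that in the cells without Trib1 by limma's interaction test, against 48.6% of all genes tested. The values, as the log2 difference with Trib1 minus that without it, were -0.7922 for S100a8, -0.7462 for S100a9, -0.6579 for S100a4, -0.5358 for S100a6, -0.5323 for S100a11, -0.4233 for S100a10, -0.1552 for S100a13 and 0.713 for S100pbp. The S100a13 call is the least stable of these: it was lost in 5 of 24 alternatives (highest adjusted p 0.0704). The value of S100pbp belongs to its brighter probe set, and the dimmer one gave -0.08 (adjusted p = 0.388).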

How the results depend on the processing

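The number of members that passed stayed within 1.5 times its reported value under each of 13 other settings and 12 fits without 1 array, for all 5 comparisons, except that the fit to only the compared groups gives no interaction. That number hides a shift between higher and lower calls in B6 Trib1 minus B6, where calls were lost or gained. There 4 members were higher and 2 lower as reported, and 6 and 2 under quantile normalization. With centring on the kept probe sets 7 were higher and none lower. S100a6, S100a13 and S100pbp gained a call as higher in that comparison in 1, 3 and 6 of 25 alternatives. Without 1 array the counts ranged from 8 to 8 for Ts1Cje minus B6, 4 to 5 for Ts1Cje Trib1 minus B6 Trib1, 5 to 7 for B6 Trib1 minus B6, 8 to 8 for Ts1Cje Trib1 minus Ts1Cje and 7 to 8 for the interaction. The signs that turned belong to differences near 0. S100a1 in Ts1Cje minus B6 was -0.003621 with median centring and -0.03729 without the 3 arrays whose medians stood apart from their groups, and without 1 array it ranged from -0.03729 to 0.09091. S100pbp between the lines ranged from -0.02701 to 0.0899 without 1 array. S100a9 in B6 Trib1 minus B6 was 0.01059 with centring on the kept probe sets, which shifted the median of all genes in that comparison by 0.1038. The cause of these turns was not tested. The last 2 settings, this centring and the 3 arrays left out together, were chosen after seeing the data. This centring moved the share of higher genes among those that passed from 44.3% to 65.0% in Ts1Cje minus B6, from 52.3% to 69.8% in B6 Trib1 minus B6 and from 58.4% to 39.5% in the interaction. With the replicate block 5 members passed in B6 Trib1 minus B6, S100a9 being lost, and no other member's call changed; 3 of the 12 arrays were most like the arrays of their own number. With 3 arrays in a group, and an unknown scaling upstream, differences of about 0.1 log2 units are not settled here. The dimmer S100pbp probe set, with group means of 28.2 to 37.5, lay close to the array medians of 30.5 to 31.99.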

Other observations

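Marker lists whose sums are not printed above are given here by their summed intensity. Eosinophil genes (6 listed, Ccr3 dim on every array) summed to 467 to 499.6 on the B6 arrays, 894 to 1011 on the Ts1Cje arrays, 1361 to 1466 on the B6 Trib1 arrays and 582 to 587 on the Ts1Cje Trib1 arrays. Erythroid genes (6 of 7) summed to 1180.0 to 1202, 638 to 680.1, 1727 to 1786 and 2091 to 2173 in the same order. T and NK cell genes (8, Ncr1 dim) summed to 996 to 1048, 473 to 506, 1256 to 1263 and 1792 to 1883, and dendritic cell genes (5 of 6) to 886 to 976, 955 to 996, 376 to 378 and 310.2 to 377. Stem and progenitor genes (7, Mecom dim) summed to 1848 to 1881, 1834 to 1869, 3298 to 3402 and 3054 to 3347. Stromal, endothelial and epithelial genes (9) summed to 926 to 972, 729.6 to 768, 1055 to 1128 and 1098 to 1303, and the collagens Col1a1, Col1a2 and Col3a1 were dim on all arrays.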
